A study of Mus musculus with 18 samples.

Results

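Prostaglandin synthesis and signaling were followed through 10 genes in the colon of naive mice and of mice with colitis-associated cancer (CAC). The genes were taken by symbol from the count table, where they are 10 of 47729 genes. They are the synthesis genes *Ptgs1*, *Ptgs2*, *Ptges* and *Ptgis*, the breakdown and uptake genes *Hpgd* and *Slco2a1*, and *Ptger1*, *Ptger2*, *Ptger3* and *Ptger4*, which encode the receptors of prostaglandin E. RNA-Seq was done on colon from 9 mice on a C57BL/6 background, 3 in each of 3 groups, with every library run in 2 lanes. Naive WT mice (mice 1 to 3) were labeled as controls. WT CAC mice (mice 4 to 6) were WT mice that received azoxymethane (AOM), a carcinogen, at 10 mg/kg, followed by dextran sulfate sodium (DSS), which injures the colonic epithelium, at 2.5% in 3 cycles. *Cldn2*TG CAC mice (mice 7 to 9) carried a *Cldn2* transgene that the villin promoter drives in intestinal epithelial cells, and received the same agents. There was no naive *Cldn2*TG group among the samples used here, so genotype and treatment cannot be told apart where *Cldn2*TG CAC mice are set against naive WT mice. Ages were not given in the sources used here.

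Prostaglandins are lipid signals made from arachidonic acid. Cyclooxygenases (encoded by *Ptgs1* and *Ptgs2*) convert it to prostaglandin H, and terminal synthases make each prostanoid from that intermediate, with prostaglandin E the form best known for its part in colonic inflammation, mucosal repair and tumor growth. Prostaglandin E acts on the cell surface receptors EP1 to EP4, and its signal ends when it is taken up into cells and oxidized.

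Total counts were 19598540, 19973030 and 22103851 in naive WT mice 1, 2 and 3. WT CAC mice 4, 5 and 6 had 19143664, 22262546 and 14142711. In *Cldn2*TG CAC mice 7, 8 and 9 they were 14900807, 20555392 and 14871987. Levels are in CPM, counts scaled to the library and normalized over all 9 mice. A count of 0 allows up to 0.135 to 0.212 CPM at these depths, a limit for counting error only. Mitochondrial genes took 3.11%, 3.5% and 2.86% of the counts in naive WT mice, 4.69%, 3.54% and 4.49% in WT CAC mice and 5.04%, 4.58% and 5.76% in *Cldn2*TG CAC mice. The 10 largest genes took 7.06%, 7.33% and 6.58% in naive WT mice, 9.45%, 8.26% and 8.17% in WT CAC mice and 8.19%, 8.69% and 10.0% in *Cldn2*TG CAC mice. Both shares were higher in every CAC mouse than in every naive mouse, and the CAC groups overlapped. Their part in the results was not tested. Naive WT mouse 1 stood apart in sex: *Xist*, an RNA of female cells, was 214 CPM in it and at most 0.203 CPM in the other mice. For the prostaglandin genes and the pathway around them, values without this mouse are given where they change a call. For cell type markers such calls are named only in part, without these values. Epithelium was followed by 6 markers, which cannot tell colon from other gut epithelium, and all of them had counts in every group. Their summed level was 10560, 10880 and 11460 CPM in naive WT mice, 12080, 11980 and 10420 CPM in WT CAC mice and 11670, 13390 and 14180 CPM in *Cldn2*TG CAC mice, with *Krt8* the most abundant. *Cldn2* itself was 208, 218 and 251 CPM in *Cldn2*TG CAC mice and 119, 137 and 132 CPM in WT CAC mice. These groups did not overlap, and *Cldn2* was called higher in the transgenic mice, by 0.78 on the log2 scale (standard error, SE, 0.12; adjusted p = 0.0103 by edgeR). The call was lost without mouse 8 (0.82, adjusted p = 0.058) and without mouse 9 (0.71, adjusted p = 0.0597). Naive WT mice, with 192, 259 and 245 CPM, overlapped with the transgenic mice (log2 fold change -0.03, adjusted p = 0.897 by edgeR). *Cldn2* fell by 0.82 in WT CAC against naive WT mice (SE 0.14, adjusted p = 0.0138 by edgeR), a call lost without mouse 2 or mouse 3, with an adjusted p of at most 0.0635 over the alternatives.

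Each comparison was tested over all genes with enough counts, two-sided, with the quasi-likelihood method of edgeR. A gene is called at an adjusted p under 0.05 (Benjamini-Hochberg). All 10 prostaglandin genes were tested in each of the 3 comparisons. In WT CAC against naive WT, which asks what AOM and DSS did in WT colon, 2 of the 10 were called higher (*Ptgs2* and *Ptges*) and 0 lower, while 8.04% of the 15437 genes tested were called higher and 6.92% lower. At an unadjusted p under 0.05 these counts were 4 and 0, where 5032 of the 15437 genes passed in either direction. DESeq2 called 2 and 0, and over all genes 1752 higher and 1468 lower. Their median log2 fold change was 0.37, against 0.02 over all genes tested. In *Cldn2*TG CAC against WT CAC, which asks what the transgene did under treatment, 0 were called higher and 1 lower (*Ptgs1*), with 2.19% and 7.35% of 14888 genes called higher and lower. At an unadjusted p under 0.05 there were 2 higher and 4 lower, where 3498 of the 14888 genes passed in either direction. DESeq2 called 0 and 3, and over all genes 588 higher and 1484 lower. The median was -0.32, against 0.01 over all genes tested. In *Cldn2*TG CAC against naive WT, *Ptger3* was called higher and *Ptgs1* lower, with 3.92% and 6.07% of 15013 genes called in these directions. At an unadjusted p under 0.05 there were 2 higher and 1 lower, where 3896 of the 15013 genes passed in either direction. DESeq2 called 1 and 1, and over all genes 795 higher and 999 lower. The median was 0.05, against 0.0 over all genes. When TMM normalization was replaced by library size, 276 genes were called higher and 1310 lower (17.4% higher) in place of 589 and 912 (39.2% higher), and the median of all genes moved to -0.11. Leaving out 1 mouse changed the counts of the 10 genes called. In the first comparison they were 0 without mouse 1, 2 or 3, 3 without mouse 4 and 1 without mouse 5 or 6. The second had 4 without mouse 4 and 0 without mouse 8 or 9, and the third 0 without mouse 1, 3, 8 or 9 and 1 without mouse 7. Any pair of these comparisons shares 3 mice, so they are not independent of each other.

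**Figure D1:**
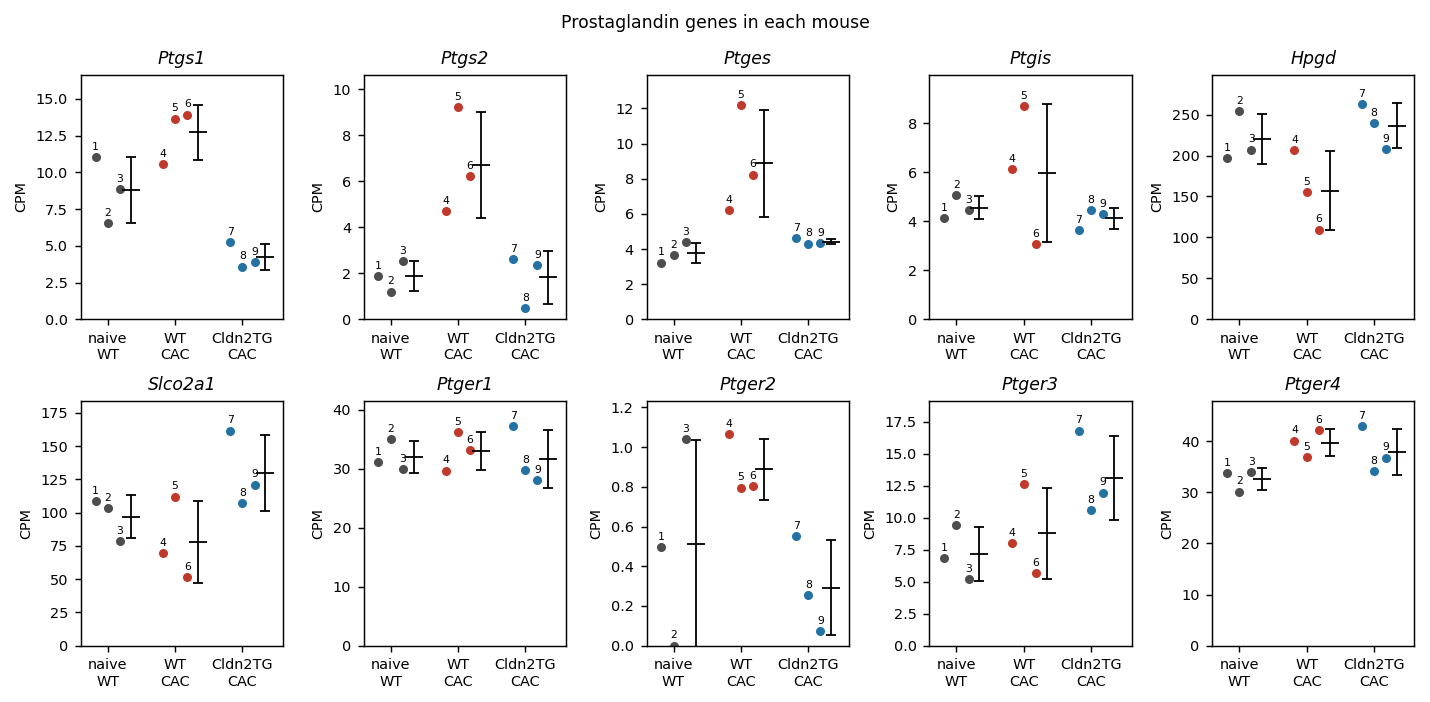
Level of each of the 10 prostaglandin genes (y axis, CPM) by group (x axis, naive WT, then WT CAC, then *Cldn2*TG CAC); each point is 1 mouse with its number, and the bar beside it is the mean with the SD of 3 mice. *Ptgs2* and *Ptges* are higher in all 3 WT CAC mice than in every other mouse, *Ptgs1* is lowest in the *Cldn2*TG CAC mice, and *Hpgd* is lowest in WT CAC mice 5 and 6.

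*Ptgs2* (chromosome 1 from 150100031 to 150108227) encodes the inducible cyclooxygenase. It was 1.89, 1.21 and 2.52 CPM in naive WT mice, 4.72, 9.24 and 6.23 CPM in WT CAC mice and 2.62, 0.507 and 2.36 CPM in *Cldn2*TG CAC mice. Every WT CAC mouse lay above every naive and every transgenic mouse, mouse 5 highest, and the other groups overlapped. In WT CAC mice *Ptgs2* rose 3.64-fold over naive WT mice (log2 fold change 1.86, SE 0.36, adjusted p = 0.0185 by edgeR). The call was lost without naive WT mouse 1 (1.87, adjusted p = 0.0633), mouse 2 (1.62, adjusted p = 0.0746) or without mouse 3 (2.12, adjusted p = 0.0501), and the adjusted p of all alternatives ran from 4.82e-05 to 0.0746. Against WT CAC mice the value in *Cldn2*TG CAC mice was -1.93 (SE 0.54), not called (adjusted p = 0.0637 by edgeR). It was called without WT CAC mouse 4, the lowest WT CAC mouse (-2.13, adjusted p = 0.0306), by DESeq2 (adjusted p = 0.00344), with scaling by library size only (adjusted p = 0.0482), with all 9 mice in the fit (adjusted p = 0.0329) and with lane 2 only (adjusted p = 0.0145). Over all alternatives the adjusted p reached 0.179. The difference between *Cldn2*TG CAC and naive WT mice was -0.07 (SE 0.53, adjusted p = 0.95 by edgeR), with 0.41 without the low mouse 8 and 0.2 without mouse 3. The counts behind these levels were low, from 10 to 209 in a mouse.

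*Ptges* (chromosome 2 from 30889471 to 30929863), the inducible prostaglandin E synthase of microsomes, was 3.23, 3.67 and 4.39 CPM in naive WT mice, 6.2, 12.2 and 8.24 CPM in WT CAC mice and 4.62, 4.31 and 4.36 CPM in *Cldn2*TG CAC mice. As for *Ptgs2*, the 3 WT CAC mice stood above all others with mouse 5 highest. The *Cldn2*TG CAC mice lay close together, mice 8 and 9 at the upper end of the naive range and mouse 7 just above it. *Ptges* rose 2.4-fold in WT CAC against naive WT mice (log2 fold change 1.26, SE 0.28, adjusted p = 0.0273 by edgeR). The call was lost without mouse 1 (1.16, adjusted p = 0.0896), mouse 2 (1.23, adjusted p = 0.103), mouse 3 (1.37, adjusted p = 0.0752), mouse 5 (0.97, adjusted p = 0.0657) or without mouse 6 (1.31, adjusted p = 0.0563), so that mouse 4 was the only 1 of the 6 that could be left out, and the lowest adjusted p among all alternatives was 0.00097. From WT CAC to *Cldn2*TG CAC mice it was -1.03 (SE 0.27) and just missed the threshold (adjusted p = 0.0506 by edgeR). It was called without mouse 4 (-1.22, adjusted p = 0.00616), by DESeq2 (adjusted p = 0.0108), with library size only (adjusted p = 0.0359), with no filter on low counts (adjusted p = 0.0287) and with all 9 mice in the fit (adjusted p = 0.023), and reached an adjusted p of 0.174 in the others. Against naive WT mice the value was 0.24 (SE 0.21, adjusted p = 0.511 by edgeR).

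*Ptgs1* (chromosome 2 from 36230426 to 36252272) encodes the cyclooxygenase that many cells carry without stimulation. Its level was 11.1, 6.58 and 8.86 CPM in naive WT mice, 10.6, 13.7 and 13.9 CPM in WT CAC mice and 5.24, 3.6 and 3.92 CPM in *Cldn2*TG CAC mice. All 3 *Cldn2*TG CAC mice were below every mouse of the other groups, while naive WT mouse 1 reached into the WT CAC range. *Ptgs1* fell by 1.6 on the log2 scale from WT CAC to *Cldn2*TG CAC mice, a 3.04-fold difference (SE 0.23, adjusted p = 0.00848 by edgeR). That call was lost without mouse 8 (-1.48, adjusted p = 0.0565) or without mouse 9 (-1.54, adjusted p = 0.0532), and the alternatives gave adjusted p-values from 1.19e-07 to 0.0565. It also fell by 1.05 from naive WT to *Cldn2*TG CAC mice (SE 0.24, adjusted p = 0.0218 by edgeR). This second call was lost without mouse 1 (-0.85, adjusted p = 0.0693), mouse 3 (-1.06, adjusted p = 0.0682), mouse 8 (-0.94, adjusted p = 0.0876) or without mouse 9 (-1.0, adjusted p = 0.0645), in a range from 9.27e-05 to 0.0876. Between WT CAC and naive WT mice it was 0.55 (SE 0.23, adjusted p = 0.134 by edgeR) and no alternative called it. A noncoding gene on the opposite strand covers 3.81% of the exonic bases of *Ptgs1*, and reads of the strands cannot be told apart, since the strand setting of the counting is not given in the sources used here.

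*Ptgis* (chromosome 2 from 167191805 to 167240604), which encodes prostacyclin synthase, was 4.13, 5.07 and 4.47 CPM in naive WT mice, 6.15, 8.71 and 3.08 CPM in WT CAC mice and 3.65, 4.46 and 4.28 CPM in *Cldn2*TG CAC mice. The WT CAC mice held both the highest level (mouse 5) and the lowest (mouse 6), and the groups overlapped in each comparison. None of the fits called it: the log2 fold change was 0.42 (SE 0.35, adjusted p = 0.442), -0.56 (SE 0.36, adjusted p = 0.412) and -0.13 (SE 0.2, adjusted p = 0.719 by edgeR) for WT CAC against naive WT, *Cldn2*TG CAC against WT CAC, then *Cldn2*TG CAC against naive WT.

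*Hpgd* (chromosome 8 from 56294552 to 56321046) encodes the dehydrogenase that oxidizes and inactivates prostaglandin E. It was 197, 254 and 207 CPM in naive WT mice, 206, 155 and 110 CPM in WT CAC mice and 262, 239 and 208 CPM in *Cldn2*TG CAC mice. WT CAC mice 5 and 6 were below every other mouse, and mouse 4 lay within the naive range but just below the lowest *Cldn2*TG CAC mouse. The log2 fold change was -0.46 in WT CAC against naive WT mice (SE 0.22, adjusted p = 0.194 by edgeR) and 0.57 in *Cldn2*TG CAC against WT CAC mice (SE 0.22, adjusted p = 0.155 by edgeR), neither called. Without mouse 4 both were called, at -0.71 (adjusted p = 0.0206) and 0.82 (adjusted p = 0.0093), while over all alternatives the adjusted p rose to 0.459 and 0.368. Against naive WT mice, *Cldn2*TG CAC mice had a difference of 0.12 (SE 0.12, adjusted p = 0.59 by edgeR).

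*Slco2a1* (chromosome 9 from 102988712 to 103096002), the prostaglandin uptake transporter, was 108, 104 and 78.5 CPM in naive WT mice, 69.8, 112 and 51.7 CPM in WT CAC mice and 162, 107 and 121 CPM in *Cldn2*TG CAC mice. The transgenic mice held the highest value (mouse 7) and WT CAC mouse 6 the lowest, and the groups overlapped in each comparison because WT CAC mouse 5 and *Cldn2*TG CAC mouse 8 were close to the naive level. The log2 fold change was -0.29 (SE 0.27, adjusted p = 0.49) in WT CAC against naive WT mice and 0.72 (SE 0.28, adjusted p = 0.172) in *Cldn2*TG CAC against WT CAC mice by edgeR. For *Cldn2*TG CAC against naive WT mice it was 0.43 (SE 0.17, adjusted p = 0.159 by edgeR), which was called only with no filter on low counts (0.42, adjusted p = 0.00317), and the adjusted p reached 0.412 in the other alternatives.

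Among the receptors, *Ptger3* (chromosome 3 from 157566892 to 157645888) encodes EP3, which lowers cAMP in many cells. It was 6.87, 9.44 and 5.21 CPM in naive WT mice, 8.03, 12.7 and 5.69 CPM in WT CAC mice and 16.8, 10.6 and 12 CPM in *Cldn2*TG CAC mice. All *Cldn2*TG CAC mice were above all naive WT mice, and WT CAC mice spread across both. *Ptger3* rose 1.84-fold in *Cldn2*TG CAC against naive WT mice (log2 fold change 0.88, SE 0.25), at an adjusted p of 0.0496 by edgeR that lay at the threshold. The call was lost without mouse 1 (0.86, adjusted p = 0.117), mouse 3 (0.69, adjusted p = 0.153), mouse 7 (0.65, adjusted p = 0.124), mouse 8 (1.01, adjusted p = 0.0717) or without mouse 9 (0.94, adjusted p = 0.0964). It was lost too with library size only (adjusted p = 0.0692), all 9 mice in the fit (adjusted p = 0.158), lane 1 only (adjusted p = 0.0521) and lane 2 only (adjusted p = 0.0689), while the lowest adjusted p of any alternative was 0.000137. The differences of WT CAC from naive WT mice (0.32, SE 0.33, adjusted p = 0.538) and of *Cldn2*TG CAC from WT CAC mice (0.55, SE 0.31, adjusted p = 0.342 by edgeR) were not called.

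*Ptger4* encodes EP4, which raises cAMP, and was 33.7, 30.1 and 34 CPM in naive WT mice, 40.1, 36.9 and 42.2 CPM in WT CAC mice and 42.9, 34.2 and 36.8 CPM in *Cldn2*TG CAC mice. Every treated mouse was above every naive mouse, by a small margin, and none of the differences was called, with log2 fold changes of 0.31 (SE 0.11, adjusted p = 0.101) in WT CAC and 0.22 (SE 0.12, adjusted p = 0.256 by edgeR) in *Cldn2*TG CAC against naive WT mice. From WT CAC to *Cldn2*TG CAC mice it was -0.09 (SE 0.14, adjusted p = 0.784 by edgeR). *Ptger1*, the EP1 gene, ranged from 28.1 to 37.2 CPM over the 9 mice with all groups overlapping, and its log2 fold changes, for WT CAC against naive WT first and *Cldn2*TG CAC against naive WT last, were 0.07 (SE 0.12), -0.08 (SE 0.15) and -0.01 (SE 0.13), with adjusted p-values of 0.734, 0.829 and 0.976 by edgeR. *Ptger2*, the gene of EP2, the other receptor that raises cAMP, was near the counting limit, with 0 to 24 counts in a mouse: 0.498, 0 and 1.04 CPM in naive WT, 1.07, 0.796 and 0.803 CPM in WT CAC and 0.551, 0.253 and 0.0739 CPM in *Cldn2*TG CAC mice. The 3 transgenic mice were below the 3 WT CAC mice, and the log2 fold change of -1.6 had a large SE (0.56) and was not called (adjusted p = 0.115 by edgeR). It ran from -2.32 without mouse 7 to -1.18 without mouse 9. Against naive WT mice it was 0.78 (SE 0.82) in WT CAC and -0.83 (SE 1.0) in *Cldn2*TG CAC mice, with adjusted p-values of 0.543 and 0.648. The first ran from 0.22 without mouse 2 to 1.82 without mouse 3, and the second from -1.54 without mouse 7 to 0.23 without mouse 3. The counts of *Ptger4* may hold reads of neighbors, since exons of *Ttc33* and a noncoding gene on the opposite strand cover 16.5% of its exonic bases. *Ttc33* was 23.2 to 31 CPM over the 9 mice and was not called in any comparison.

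Counted by whether the groups overlap, 3 of the 10 genes (*Ptgs2*, *Ptges* and *Ptger4*) had every WT CAC mouse above every naive WT mouse and 0 had every mouse below, against 17.7% and 20.3% of all genes tested. Between *Cldn2*TG CAC and WT CAC mice, 4 genes were separated downward (*Ptgs1*, *Ptgs2*, *Ptges* and *Ptger2*) and 1 upward (*Hpgd*), against 14.3% and 14.2% of all genes. Between *Cldn2*TG CAC and naive WT mice, *Ptger3* and *Ptger4* were separated upward and *Ptgs1* downward, against 14.9% and 16.3%.

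**Figure D2:**
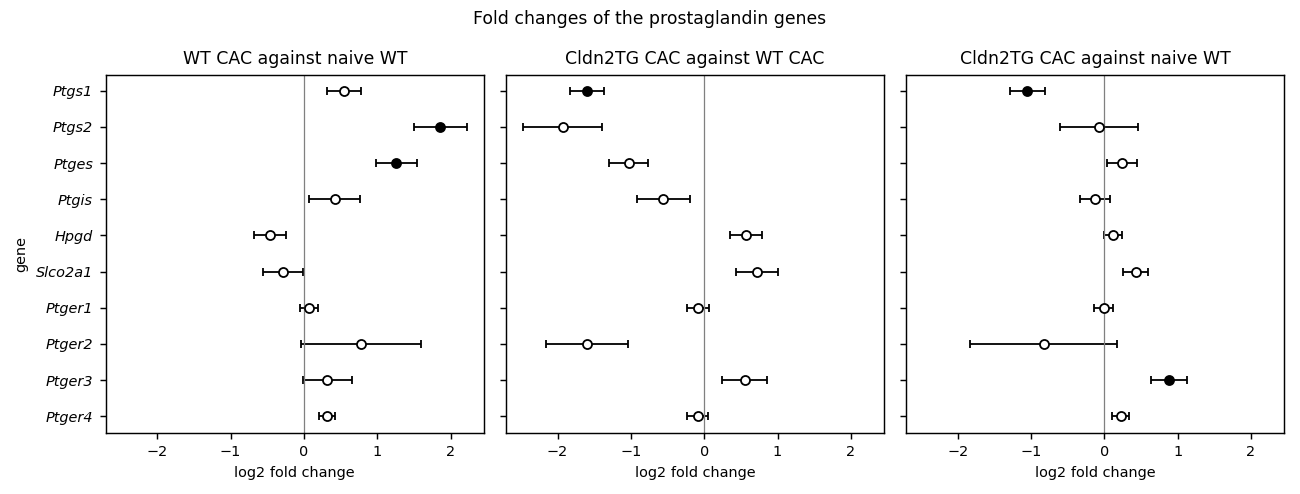
Log2 fold change (x axis) with its standard error of each of the 10 genes (y axis) in the 3 comparisons, 3 mice against 3 in each; filled points are called at an adjusted p under 0.05 by edgeR. The cyclooxygenase and prostaglandin E synthase genes lie to the right of 0 in WT CAC against naive WT and to the left in *Cldn2*TG CAC against WT CAC, which share the WT CAC mice.

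To compare genes with each other, levels were divided by exonic length. On the scale of CPM per kilobase, *Hpgd* was the highest of the 10 genes in each group, at 128 ± 17.7 (SD, n = 3) in naive WT, 91.4 ± 28.1 (SD, n = 3) in WT CAC and 138 ± 15.9 (SD, n = 3) in *Cldn2*TG CAC mice. The next genes in naive WT mice were *Slco2a1* at 7.15 ± 1.19 and *Ptger1* at 6.45 ± 0.537 CPM per kilobase, whose mice overlapped, and then *Ptger4* at 4.91 ± 0.324, which did not overlap with *Ptger1*. *Ptgs1* at 2.27 ± 0.576, *Ptgis* at 1.78 ± 0.185, *Ptger3* at 1.26 ± 0.375 and *Ptges* at 0.957 ± 0.148 CPM per kilobase followed, each overlapping with the next. *Ptgs2* at 0.409 ± 0.143 and *Ptger2* at 0.139 ± 0.141 CPM per kilobase were lowest. In WT CAC mice *Ptgs2* reached 1.47 ± 0.502 and *Ptges* 2.26 ± 0.777 CPM per kilobase, which put *Ptges* level with *Ptgis* at 2.33 ± 1.1. Among *Cldn2*TG CAC mice *Ptger3* at 2.31 ± 0.574 stood above *Ptgs1* at 1.09 ± 0.224 CPM per kilobase, the reverse of their order in the other groups.

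The balance between these genes was described by a pair of ratios of CPM per kilobase, chosen after the values were seen and given without a test. *Hpgd* to *Ptgs2* was 278, 562 and 219 in naive WT mice, 116, 44.8 and 46.9 in WT CAC mice and 267, 1260 and 234 in *Cldn2*TG CAC mice. Each WT CAC mouse thus had less of the breakdown gene relative to the inducible cyclooxygenase gene than any other mouse. *Ptgs2* to *Ptgs1* was 0.145, 0.155 and 0.241 in naive WT mice, 0.379, 0.574 and 0.379 in WT CAC mice and 0.424, 0.119 and 0.512 in *Cldn2*TG CAC mice. The 3 WT CAC mice were above the naive WT mice, and so were *Cldn2*TG CAC mice 7 and 9, in which *Ptgs1* was low and *Ptgs2* near the naive level. Of the summed CPM per kilobase of the 4 receptor genes, *Ptger3* made up 9.52%, 12.5% and 7.42% in naive WT mice, 10.3%, 14.5% and 7.03% in WT CAC mice and 17.3%, 14.3% and 15.8% in *Cldn2*TG CAC mice, while *Ptger1* and *Ptger4* together held most of the rest in every mouse.

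In bulk colon, fewer cells of a type and less RNA per cell cannot be told apart, and markers of several cell types also differed between these groups. Of 5 macrophage markers, all with counts, 3 were called higher in WT CAC against naive WT mice (*Mrc1*, *Cd68* and *Csf1r*) and 4 lower in *Cldn2*TG CAC against WT CAC mice. *Cx3cr1* was also called lower in *Cldn2*TG CAC against naive WT mice (-1.94, SE 0.47, adjusted p = 0.0293 by edgeR, and up to 0.142 in the alternatives, lost without mouse 1, 3, 8 or 9), where DESeq2 called 2 lower and the median of the 5 was -0.8. Each of the other 7 calls was lost without 2 or more of the single mice, and the 3 rises were all lost without naive WT mouse 1, 2 or 3. The adjusted p reached 0.127 for the rises and 0.124 for the falls of these markers among the alternatives. Their summed level was 18.5, 13.2 and 19.8 CPM in naive WT mice, 24.6, 64.2 and 57.9 CPM in WT CAC mice and 14.7, 10.9 and 11.8 CPM in *Cldn2*TG CAC mice. *Csf1r* was the most abundant of them in naive WT and WT CAC mice and *Mrc1* in *Cldn2*TG CAC mice. WT CAC mice were above all others, as for *Ptgs2* and *Ptges*, and mouse 4 was the lowest of them in all 3 measures. The 5 fibroblast markers, led by *Col1a2* in naive WT mice and by *Dcn* in both CAC groups, summed to 206, 151 and 216 CPM in naive WT mice, 224, 612 and 280 CPM in WT CAC mice and 118, 119 and 153 CPM in *Cldn2*TG CAC mice. Mouse 5, the mouse with most *Ptgs2*, *Ptges* and *Ptgis*, also had most fibroblast RNA. By edgeR *Col1a2* was the only fibroblast marker called, lower in *Cldn2*TG CAC mice than in both other groups. DESeq2 called 2 of the 5 higher in WT CAC against naive WT mice, 5 lower from WT CAC to *Cldn2*TG CAC mice and 2 lower from naive WT to *Cldn2*TG CAC mice. The calls of *Col1a2* held in 6 and 8 of 12 alternatives (adjusted p up to 0.177 and 0.235), and were lost without mouse 6, 7, 8 or 9 against WT CAC and without mouse 1, 3 or 7 against naive WT mice. Of 4 markers of absorptive colonocytes, *Aqp8* and *Car4* were called lower in WT CAC against naive WT mice and higher in *Cldn2*TG CAC against WT CAC mice by edgeR. Of 12 alternatives 5 kept the fall of *Aqp8* and 7 that of *Car4* (adjusted p up to 0.143 and 0.0857), and 7 and 9 kept their rises (up to 0.0841 and 0.0669). The falls were both lost without mouse 1, 2, 3 or 5, and that of *Aqp8* without mouse 6, while the rises were both lost without mouse 5, 8 or 9, and that of *Aqp8* without mouse 7. *Car4* was the most abundant of the 4 in naive WT and *Cldn2*TG CAC mice and *Car1* in WT CAC mice. Their summed level was 5854, 3703 and 3273 CPM in naive WT mice, 3837, 1726 and 1215 CPM in WT CAC mice and 4319, 5549 and 6496 CPM in *Cldn2*TG CAC mice. Mice 5 and 6 were lowest in these markers and in *Hpgd*, and mouse 4 was within the naive range in *Hpgd* and in the sum. It was below every naive mouse in *Car4* (716 CPM, against at least 1211 CPM) and *Aqp8* (440 CPM, against at least 599 CPM), and its sum held 1844 CPM of *Car1*. Tuft cells of the gut are known to express *Ptgs1*, and of their 6 markers *Dclk1* and *Trpm5* were called lower in WT CAC mice and *Dclk1* in *Cldn2*TG CAC mice, each against naive WT mice. All 3 tuft cell calls were lost without mouse 2 or mouse 3, and the last also without mouse 8 or mouse 9 (adjusted p up to 0.0585, 0.0803 and 0.156). The sum of the tuft cell markers was 26.8, 31.1 and 42 CPM in naive WT, 18.2, 36 and 63.8 CPM in WT CAC and 24, 18.3 and 18.6 CPM in *Cldn2*TG CAC mice. *Dclk1* was the most abundant of them in naive WT (mean of 15.1 CPM) and *Cldn2*TG CAC mice (8.18 CPM), and *Avil* in WT CAC mice (28.6 CPM), where it made up 55.1 CPM of the sum in mouse 6. The mean of *Dclk1* was lowest in WT CAC mice (5.57 CPM), the group with the highest mean of *Ptgs1* (12.7 CPM). No defining marker of these 4 lists was at 0 in a whole group. The part of these cell types in the prostaglandin genes was not tested.

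**Figure D3:**
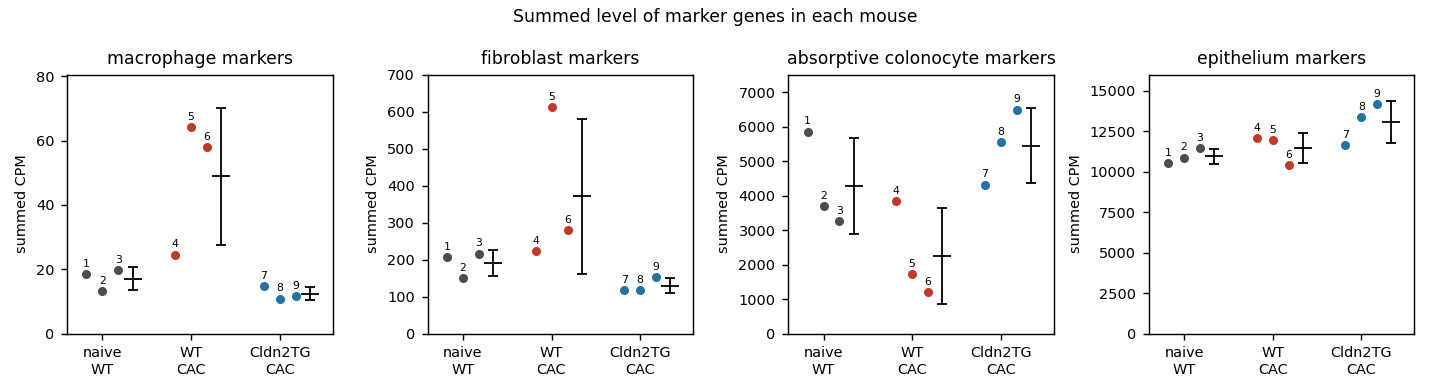
Summed level (y axis, CPM) of the markers of macrophages, fibroblasts, absorptive colonocytes and epithelium by group (x axis, naive WT, then WT CAC, then *Cldn2*TG CAC); each point is 1 mouse with its number, and the bar beside it is the mean with the SD of 3 mice. Macrophage markers are highest in WT CAC mice 5 (64.2 CPM) and 6 (57.9 CPM), the mice with the fewest colonocyte markers, while epithelial markers lie between 10420 and 14180 CPM in all mice.

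Likeness of pattern was measured by Pearson's r of log2 CPM over the 9 mice among 13895 other genes, as a description in which the mice of a group share their treatment. The genes most like *Ptgs2* were *Mmp2* (r = 0.961), which encodes a matrix protease, *Selplg* (r = 0.956), a selectin ligand of leukocytes, *Wnt4* (r = 0.95), *Mpeg1* (r = 0.949), a gene of macrophages, and *Ap1s2* (r = 0.947). *Mpeg1* had a mean of 6.71 CPM in naive WT, 30.1 CPM in WT CAC and 5.31 CPM in *Cldn2*TG CAC mice, and *Mmp2* 11.3, 36.8 and 9.15 CPM. Those most like *Hpgd* were *Inafm1* (r = 0.983), *Tlr1* (r = 0.979), *Hykk* (r = 0.979), *Prkcz* (r = 0.976) and *Phldb1* (r = 0.975), each lowest on average in WT CAC mice.

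The pathway around these genes was described by 6 lists with 48 genes. Upstream, phospholipases A2 release arachidonic acid from membranes. Of 8 such genes, 7 were tested, and between WT CAC and naive WT mice *Pla2g2a* was called higher and *Pla2g4a* and *Pla2g5* lower, with a median log2 fold change of -0.29. *Pla2g2a*, by name the gene of a secreted phospholipase, was 5.62, 2.91 and 4.56 CPM in naive WT mice, 23.7, 67.7 and 196 CPM in WT CAC mice and 7.16, 8.01 and 16.9 CPM in *Cldn2*TG CAC mice. These are RNA levels, and whether these mice made active enzyme from them was not measured. *Pla2g2a* RNA was highest in all WT CAC mice and most of all in mouse 6, with a log2 fold change of 4.48 (SE 0.82, adjusted p = 0.0206 by edgeR). The call was lost without mouse 1 (4.7, adjusted p = 0.063), mouse 2 (4.25, adjusted p = 0.0846) or without mouse 3 (4.49, adjusted p = 0.0667) and with no filter on low counts (adjusted p = 0.0835), while the lowest adjusted p of an alternative was 2.1e-06. Without mouse 6, its highest, the value was 3.4 and still called (adjusted p = 0.0219). *Pla2g4a*, the cytosolic phospholipase that feeds the cyclooxygenases, was 63.9, 66.7 and 74.3 CPM in naive WT mice and 41.6, 54.7 and 35.6 CPM in WT CAC mice. The groups did not overlap. *Pla2g4a* fell by 0.61 on the log2 scale (SE 0.16, adjusted p = 0.0406 by edgeR), a call lost without mouse 1 (-0.66, adjusted p = 0.0891), mouse 2 (-0.63, adjusted p = 0.114), mouse 3 (-0.56, adjusted p = 0.129) or without mouse 6 (-0.48, adjusted p = 0.0945) and with lane 2 only (adjusted p = 0.0559), in a range from 0.00782 to 0.129. *Pla2g5* was 43.2, 35.1 and 36.1 CPM in naive WT, 23.5, 23.4 and 22.7 CPM in WT CAC and 41.4, 47.1 and 53.3 CPM in *Cldn2*TG CAC mice. The WT CAC mice were lowest with almost no spread. *Pla2g5* fell by 0.69 in WT CAC against naive WT mice (SE 0.12, adjusted p = 0.0156), a call lost without mouse 1 (-0.6, adjusted p = 0.0516), mouse 2 (-0.76, adjusted p = 0.0585) or without mouse 3 (-0.75, adjusted p = 0.0527), with 0.000146 the lowest of the alternatives. It rose 2.01-fold in *Cldn2*TG CAC against WT CAC mice (log2 fold change 1.0, SE 0.13, adjusted p = 0.00777 by edgeR), lost without mouse 8 (1.02, adjusted p = 0.052) and kept elsewhere, down to 1.12e-07. This was the only call of the list there by edgeR (median -0.15), and DESeq2 called 1 higher and 2 lower. *Pla2g2a* was at -3.19 in that comparison (SE 0.81, adjusted p = 0.0592 by edgeR), with no overlap between the groups. Without mouse 6, the highest WT CAC mouse, it was -2.1. It was called by DESeq2, with all 9 mice in the fit and without mouse 4, and the adjusted p ran from 0.00414 to 0.217 over the alternatives. Between *Cldn2*TG CAC and naive WT mice edgeR called 0 genes (median -0.07), with 2 higher at an unadjusted p under 0.05 and 1 by DESeq2. Over all genes tested there, 3896 of 15013 passed at an unadjusted p under 0.05, and DESeq2 called 795 higher and 999 lower.

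Of 8 other prostanoid synthases, 7 were tested, with medians of 0.32 in WT CAC against naive WT, 0.18 for *Cldn2*TG CAC against WT CAC, then 0.45 in *Cldn2*TG CAC against naive WT mice. *Ptges3*, a cytosolic prostaglandin E synthase that is also a chaperone partner, was 60.7, 54.3 and 55.5 CPM in naive WT, 70.6, 74.8 and 90.2 CPM in WT CAC and 64.8, 74.9 and 92.3 CPM in *Cldn2*TG CAC mice. All treated mice were above the naive WT mice, and it was called higher in both groups, by 0.49 (SE 0.13, adjusted p = 0.039) and 0.45 (SE 0.13, adjusted p = 0.0491 by edgeR). The first call was lost without mouse 1 (adjusted p = 0.087), 2 (0.143), 3 (0.137), 5 (0.0619) or 6 (0.0893), and the second without mouse 1 (0.0678), 2 (0.134), 3 (0.157), 8 (0.111) or 9 (0.133). The second was also lost with library size only (0.0961), all 9 mice in the fit (0.117), lane 1 only (0.0627) and lane 2 only (0.0546), and 3 of 12 alternatives kept it. The lowest adjusted p among the alternatives was 0.00839 for the first and 0.0027 for the second. *Akr1b3*, an aldose reductase that can make prostaglandin F, was 73.7, 68.8 and 61.9 CPM in naive WT, 54.4, 45.2 and 47.1 CPM in WT CAC and 67.7, 74.9 and 81.6 CPM in *Cldn2*TG CAC mice. WT CAC mice were lowest, and it fell by 0.45 in WT CAC against naive WT mice (SE 0.12, adjusted p = 0.0455) and rose by 0.59 in *Cldn2*TG CAC against WT CAC mice (SE 0.13, adjusted p = 0.0281 by edgeR). The first of these calls needed every mouse but mouse 4, with an adjusted p of 0.0881 to 0.145 without mouse 1, 2, 3, 5 or 6, and so did the second, with 0.0654 to 0.112 without mouse 5, 6, 7, 8 or 9. The first was also lost with lane 1 only (0.0527) and lane 2 only (0.0579), and the lowest adjusted p of an alternative was 0.0149 for the first and 0.00355 for the second. *Hpgds*, which makes prostaglandin D and is a gene of tuft and mast cells, rose by 0.82 in *Cldn2*TG CAC against naive WT mice (SE 0.23, adjusted p = 0.0482), from 5.97, 8.38 and 7.34 CPM to 16, 8.72 and 13.7 CPM. *Fam213b*, an alternative symbol of *Prxl2b*, a prostaglandin F synthase, rose by 0.72 (SE 0.18, adjusted p = 0.0353 by edgeR), from 19.3, 17.1 and 13.1 CPM to 20.9, 31.5 and 28.5 CPM. Neither call was stable: that of *Hpgds* was lost without mouse 1 (adjusted p = 0.126), 2 (0.0619), 3 (0.138), 7 (0.125) or 9 (0.128), and that of *Fam213b* without mouse 2 (0.0742), 3 (0.12), 8 (0.129) or 9 (0.1). Both were also lost with library size only (0.0732 for *Hpgds* and 0.0531 for *Fam213b*), with all 9 mice in the fit (0.0908 and 0.087) and with lane 2 only (0.162 and 0.0539). The alternatives reached from 0.000456 to 0.162 for *Hpgds* and from 4.42e-05 to 0.129 for *Fam213b*. The 3 genes of prostaglandin reduction and efflux (*Ptgr1*, *Ptgr2* and *Abcc4*) had no call by edgeR in any comparison, with medians of 0.18, 0.03 and 0.21. At an unadjusted p under 0.05 there were 1, 0 and 1 of them, and DESeq2 called 1, 0 and 0.

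Of 5 receptors of other prostanoids, 2 had enough counts in WT CAC against naive WT mice and 1 in the other comparisons, *Tbxa2r*, the thromboxane receptor gene. It was 1.39, 1.56 and 1.69 CPM in naive WT, 1.07, 1.11 and 0.937 CPM in WT CAC and 0.758, 0.659 and 0.665 CPM in *Cldn2*TG CAC mice, so that the 3 groups did not overlap. It fell by 1.15 in *Cldn2*TG CAC against naive WT mice (SE 0.31, adjusted p = 0.0392 by edgeR), a call lost by DESeq2 (adjusted p = 0.105) and without mouse 1 (0.0724), 2 (0.0883), 3 (0.148), 7 (0.0625), 8 (0.125) or 9 (0.101). Only library size (0.0289) and no filter (0.0449) kept it. The medians of the list were -0.14, -0.6 and -1.15, with 0 calls by edgeR and by DESeq2 in the first and second comparison and 0 genes there at an unadjusted p under 0.05.

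Lipoxygenases use the same arachidonic acid to make leukotrienes and related lipids. Of 14 genes of this branch 9 had enough counts in WT CAC against naive WT mice, and *Alox12*, *Alox15* and *Ltb4r1* were called higher, with a median of 1.02. *Alox12* and *Ltb4r1* passed the count filter there through the WT CAC mice. *Alox12* was 0.398, 0.452 and 0.347 CPM in naive WT mice, 7.01, 20 and 35.4 CPM in WT CAC mice and 0.964, 0.456 and 0.148 CPM in *Cldn2*TG CAC mice. All WT CAC mice were far above the others. *Alox12* rose 52.4-fold, the largest change among the 38 pathway genes tested there (log2 fold change 5.71, SE 0.68, adjusted p = 0.00763 by edgeR). The call was lost without mouse 2 (5.8, adjusted p = 0.0512), and the value was 5.09 without mouse 6. It fell by 5.31 in *Cldn2*TG CAC against WT CAC mice (SE 0.78, adjusted p = 0.0118 by edgeR). The second call was lost without mouse 8 (-5.19, adjusted p = 0.0783) or without mouse 9 (-4.91, adjusted p = 0.0632) and with no filter on low counts (adjusted p = 0.0576), and the value was -4.67 without mouse 6 and -5.98 without mouse 7. The alternatives went down to an adjusted p of 6.96e-22 for the rise and 2.55e-07 for the fall. *Alox15* was 0.995, 1.56 and 2.43 CPM in naive WT, 6.5, 14.4 and 18.6 CPM in WT CAC and 5.37, 8.21 and 2.73 CPM in *Cldn2*TG CAC mice. It was higher than naive in all treated mice. *Alox15* rose by 3.0 in WT CAC (SE 0.47, adjusted p = 0.0117) and by 1.72 in *Cldn2*TG CAC mice (SE 0.43, adjusted p = 0.0365 by edgeR), each against naive WT mice. The first call was lost without mouse 2 (2.94, adjusted p = 0.0648) and the second without mouse 1 (1.47, adjusted p = 0.0902), mouse 2 (1.67, adjusted p = 0.11), mouse 7 (1.73, adjusted p = 0.0809) or without mouse 8 (1.28, adjusted p = 0.122). The second was lost too with library size only (0.0517), all 9 mice in the fit (0.0952) and lane 1 only (0.0787). Their lowest adjusted p among the alternatives was 1.53e-09 and 8.14e-08. *Ltb4r1*, a leukotriene B4 receptor gene, rose by 2.03 in WT CAC against naive WT mice (SE 0.49, adjusted p = 0.033 by edgeR) from at most 0.597 CPM to 0.813, 2.39 and 2.08 CPM, but not without mouse 1 (adjusted p = 0.0733), 2 (0.122), 3 (0.121), 5 (0.0902) or 6 (0.0856), with 0.00431 the lowest of the alternatives. From WT CAC to *Cldn2*TG CAC mice the list's median was -0.45, and beside *Alox12* the cysteinyl leukotriene receptor gene *Cysltr1* fell by 2.31 (SE 0.46, adjusted p = 0.0189 by edgeR), from 1.12, 1.55 and 1.14 CPM to 0.413, 0.152 and 0.222 CPM. It was not called without mouse 5 (-2.14, adjusted p = 0.0678), mouse 8 (-1.98, adjusted p = 0.103) or without mouse 9 (-2.21, adjusted p = 0.0987), and the lowest of the alternatives was 0.00681. Between *Cldn2*TG CAC and naive WT mice the median was 0.02, with *Alox15* the only call.

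EP2 and EP4 signal through cAMP, and 10 cAMP-responsive genes were followed as a list, although many other signals move them too. All 10 were tested, and in WT CAC against naive WT mice edgeR called 4 higher and 0 lower, with a median of 0.7. DESeq2 called 4 higher and 1 lower, *Fos* (-0.62 and an adjusted p of 0.108 by edgeR, with overlap between the groups). *Nr4a1*, a nuclear receptor gene, was 6.17, 9.44 and 7.47 CPM in naive WT mice, 20.9, 19.5 and 24 CPM in WT CAC mice and 8.75, 6.44 and 21.8 CPM in *Cldn2*TG CAC mice. WT CAC mice were all above naive WT mice, and *Cldn2*TG CAC mouse 9 reached them. *Pde4b*, a phosphodiesterase that degrades cAMP, was 3.98, 5.57 and 4.99 CPM in naive WT mice, 11.5, 15 and 11.9 CPM in WT CAC mice and 4.62, 3.04 and 6.13 CPM in *Cldn2*TG CAC mice. Its 3 WT CAC mice stood above all others, as for *Ptgs2* and *Ptges*. *Nr4a1* rose by 1.5 (SE 0.19, adjusted p = 0.00763) and *Pde4b* by 1.43 (SE 0.2, adjusted p = 0.00864 by edgeR) in WT CAC against naive WT mice, and both were called in all 12 alternatives, with an adjusted p of at most 0.0402 and 0.0465. *Sik1*, a kinase gene, rose by 1.38 (SE 0.23, adjusted p = 0.0129) and the clock gene *Per1* by 1.03 (SE 0.22, adjusted p = 0.0237 by edgeR). *Sik1* was not called without mouse 2 (1.52, adjusted p = 0.0512) or without mouse 3 (1.26, adjusted p = 0.0569), nor *Per1* without mouse 1 (0.91, adjusted p = 0.0814), mouse 3 (0.88, adjusted p = 0.0867) or without mouse 5 (1.05, adjusted p = 0.0565). The lowest of the alternatives was 3.75e-06 and 0.000286. In *Cldn2*TG CAC against WT CAC mice 2 of the 10 were called lower, with a median of -0.55. *Pde4b* fell by 1.51 (SE 0.28, adjusted p = 0.0147 by edgeR), lost without mouse 5 (-1.39, adjusted p = 0.0536), mouse 7 (-1.51, adjusted p = 0.06), mouse 8 (-1.27, adjusted p = 0.063) or without mouse 9 (-1.76, adjusted p = 0.0506), with 1.68e-05 the lowest of the alternatives. *Per1* fell by 0.76 (SE 0.16, adjusted p = 0.0226 by edgeR), lost without mouse 5 (-0.79, adjusted p = 0.0629), mouse 8 (-0.68, adjusted p = 0.111) or without mouse 9 (-0.7, adjusted p = 0.107), with 0.0011 the lowest. Between *Cldn2*TG CAC and naive WT mice edgeR called 0 of the 10, with a median of 0.01. At an unadjusted p under 0.05 there was 1 higher, where 3896 of the 15013 genes tested passed in either direction. DESeq2 called 1 higher, against 795 higher and 999 lower over all genes.

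Over all 6 lists, 9 of 38 genes were called higher and 3 lower in WT CAC against naive WT mice (median 0.23), 2 of 37 higher and 4 lower in *Cldn2*TG CAC against WT CAC mice (median -0.15), and 4 of 36 higher and 1 lower in *Cldn2*TG CAC against naive WT mice (median 0.15). The medians over all genes tested were 0.02, 0.01 and 0.0. Of all genes tested, 8.04% were called higher and 6.92% lower in the first comparison, 2.19% and 7.35% in the second and 3.92% and 6.07% in the third, which are also the shares to read the counts of each single list against.

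Promoters of 8 of the 10 genes were matched by symbol in the RefSeq table of the GRCm38.p6 build, which holds 32851 windows from 250 bases before to 50 bases after a start. Those of the called synthesis genes are shown, since *Ptgs2* and *Ptges* were higher together in WT CAC mice and *Ptgs1* was lower in *Cldn2*TG CAC mice. They were searched on both strands for the core of the cAMP response element (CGTCA, in 20.8% of all windows), the E-box (CACGTG, 7.15%), the GC box (GGGCGG, 35.7%), the TATA box (TATAAA, 13.6%) and the AP-1 site (TGANTCA, 7.81%). Matches on either strand are in capitals. *Ptgs2* lies at chr1:150099781-150100080 on the plus strand and held a GC box at bases 81 to 86, and near its start a cAMP response element core at bases 264 to 268 that overlaps an E-box at bases 267 to 272. *Ptges* at chr2:30903248-30903547 on the minus strand held 2 GC boxes, and *Ptgs1* at chr2:36230176-36230475 on the plus strand held none of the 5 motifs.
Ptgs2: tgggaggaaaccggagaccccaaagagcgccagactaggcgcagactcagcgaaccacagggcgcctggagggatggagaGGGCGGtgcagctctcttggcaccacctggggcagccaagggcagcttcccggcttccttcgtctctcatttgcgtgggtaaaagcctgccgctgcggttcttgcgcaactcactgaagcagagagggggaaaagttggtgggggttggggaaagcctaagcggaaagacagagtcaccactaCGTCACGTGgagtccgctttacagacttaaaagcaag
Ptges: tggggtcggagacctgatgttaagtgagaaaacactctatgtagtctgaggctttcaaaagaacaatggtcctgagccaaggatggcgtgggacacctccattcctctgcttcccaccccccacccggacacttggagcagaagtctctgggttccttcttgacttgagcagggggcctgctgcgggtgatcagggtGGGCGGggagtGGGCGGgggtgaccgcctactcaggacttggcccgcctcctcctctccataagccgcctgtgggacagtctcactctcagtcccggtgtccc
Ptgs1: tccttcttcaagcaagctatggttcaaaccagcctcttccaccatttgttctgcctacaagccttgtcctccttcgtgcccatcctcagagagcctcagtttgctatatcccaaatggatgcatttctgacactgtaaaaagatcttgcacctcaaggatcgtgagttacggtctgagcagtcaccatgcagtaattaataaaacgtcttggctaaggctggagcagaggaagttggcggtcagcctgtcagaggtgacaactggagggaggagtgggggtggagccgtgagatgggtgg
Of the 8 promoters, 6 held a GC box, 2 a TATA box (*Hpgd* and *Slco2a1*), 1 the cAMP response element core, 1 the E-box and 0 the AP-1 site. A match describes the letters and is not a bound site.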

How the data were processed

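The deposited values are raw gene counts that the authors made with featureCounts on GRCm38; the submitters' processing notes name HISAT2 as the aligner, the study's methods TopHat2, and versions, strand setting and annotation release are not given in the sources used here. Groups came from the genotype and treatment labels. The protocol text of AOM and DSS also stands under the control samples, and the naive group rests on its treatment label. Both lanes of each library were summed, since their counts were as close as counting error allows (chi-square per degree of freedom 0.995 to 1.06, and 16.8 to 66.3 for mice within groups). So each of the 9 mice is 1 replicate; the study's methods state that transgenic lines were studied beside littermate controls and that mice were matched for age and sex, although *Xist* was high in naive WT mouse 1 only. Symbols came from GENCODE M21, in which 47224 rows have a symbol, and coordinates from the deposited table.

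Each comparison was fitted to its 6 mice with edgeR 4.0.16 in R 4.3.3 (TMM, filterByExpr with a minimum count of 10 and a minimum total of 15, robust quasi-likelihood fit, two-sided test, Benjamini-Hochberg over all genes tested), and standard errors were derived from the test statistic. A test of the fit on simulated data is not reported here, and none of the results rests on it. CPM used TMM factors over all 9 mice. The alternatives were DESeq2 1.42.0, library size only, no filter (at least 1 count), a fit with all 9 mice, lane 1 or lane 2 only and leaving out each mouse. Genes named are the 10 prostaglandin genes, *Cldn2*, each gene of the 6 pathway lists that was called, the most abundant genes of 13 marker lists, and the 5 genes most like *Ptgs2* and *Hpgd* (log2 CPM with a prior count of 2, mean of at least 1 CPM); other genes named were chosen after their values were seen. Members and lists were chosen with earlier results of these data known, so no list was given a test. Some results that fall under these rules are not reported here. Tables, promoter searches and figures used matplotlib 3.10.9, scipy 1.17.1, pandas 2.3.3 and numpy 2.4.6 in Python 3.11.15.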

Additional observations from a re-analysis of the deposited data

How the results depend on the processing

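With 3 mice a group, leaving out 1 mouse moved the counts of genes called to 135 to 4080 in WT CAC against naive WT (2310 with all mice, 135 without mouse 2), to 58 to 2894 in *Cldn2*TG CAC against WT CAC (1421 with all mice, 58 without mouse 8) and to 525 to 1383 in *Cldn2*TG CAC against naive WT (1501). Of the 10 prostaglandin genes, 0 to 3, 0 to 4 and 0 to 2 were then called. With all 9 mice in the fit, 2136 genes were called for *Cldn2*TG CAC against WT CAC, but 445 for *Cldn2*TG CAC against naive WT, and with no filter 2567 in the latter. Of the 10 genes, *Cldn2*TG CAC against WT CAC had 3 called by DESeq2, 3 with library size only, 3 with all 9 mice in the fit, 2 with no filter and 2 with lane 2 only. *Cldn2*TG CAC against naive WT had 1 with library size only, with all 9 mice in the fit, with lane 1 only or with lane 2 only. With library size only, the median log2 fold change of all genes in that comparison was -0.11, and 276 genes were called higher and 1310 lower, against 589 and 912. Directions turned only for differences that were not called. In WT CAC against naive WT, *Ptger1* was -0.02 with lane 2 only and *Ptger3* -0.03 to 0.56 with 1 mouse left out (-0.03 without mouse 5). For *Cldn2*TG CAC against WT CAC, *Ptger1* was 0.03 with lane 2 only and -0.21 to 0.01 with 1 mouse left out (0.01 without mouse 9). For *Cldn2*TG CAC against naive WT, *Ptgs2* was 0.01 with lane 1 only, 0.2 without mouse 3 and -0.46 to 0.41 with 1 mouse left out (0.41 without mouse 8), *Ptger1* was 0.01 with lane 2 only and -0.15 to 0.07 with 1 mouse left out (above 0 without mouse 2, 8 or 9, at 0.06, 0.03 and 0.07), and *Ptger2* was -1.54 to 0.23 (0.23 without mouse 3). Of 640 values of single genes under an alternative, 494 kept their direction and side of the threshold, 121 lost a call and 13 gained one. The causes were not tested. Depth limits *Ptger2* and *Ptgs2* most.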

Other observations

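Other cell types were followed by their markers, whose part in the prostaglandin genes was not tested. Smooth muscle markers, led by *Tagln*, summed to 3966, 1954 and 2928 CPM in naive WT mice, 2875, 1036 and 1260 CPM in WT CAC mice and 1236, 1452 and 939 CPM in *Cldn2*TG CAC mice. Of 6, *Acta2* and *Myh11* were called lower in *Cldn2*TG CAC against naive WT mice, and 6 by DESeq2. Among markers of enteric neurons and glia, *Ret* was called lower in *Cldn2*TG CAC mice against both other groups, and it reached 31.1 and 29.1 CPM in WT CAC mice 5 and 6. Endothelial markers, led by *Pecam1*, summed to 26.8, 31.5 and 27.9 CPM in naive WT mice, 23.1, 34.6 and 25.8 CPM in WT CAC mice and 15.6, 12.1 and 14.5 CPM in *Cldn2*TG CAC mice. In this sum, as in *Ptgs1*, every *Cldn2*TG CAC mouse was below every other mouse. Of the 5 endothelial markers, 2 were called lower in *Cldn2*TG CAC mice against WT CAC mice and 3 against naive WT mice. Of the 6 epithelial markers only *Krt8* was called, higher in *Cldn2*TG CAC against naive WT mice (log2 fold change 0.43).

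Immune markers other than those of macrophages were mostly higher in WT CAC mice. *Ly6g* made up most of the neutrophil sum and was 207, 197 and 137 CPM in naive WT mice, in which *S100a8* was at most 0.261 CPM, so that *Ly6g* was high where another neutrophil marker was near 0. *S100a8* was 0.559, 18.5 and 13.4 CPM in WT CAC mice and at most 0.203 CPM in *Cldn2*TG CAC mice. Of the neutrophil markers tested, 4 of 4 were called higher in WT CAC against naive WT mice, 2 of 3 lower in *Cldn2*TG CAC against WT CAC mice and *Ly6g*, the only 1 tested, higher in *Cldn2*TG CAC against naive WT mice. Mast cell markers (led by *Mcpt1* in WT CAC mice and by *Cma1* in the other groups) summed to 10.2, 9.04 and 9.51 CPM in naive WT mice, 21.9, 30.7 and 85.8 CPM in WT CAC mice and 15.4, 14.4 and 12.1 CPM in *Cldn2*TG CAC mice. Of 7 listed, 3 of 4 tested were called higher, 2 of 4 lower and 1 of 3 higher in the same order of comparisons. In the first, *Mcpt2* and *Tpsb2* passed the count filter through the WT CAC mice. T cell markers (led by *Cd4* in WT mice and by *Cd3d* in *Cldn2*TG CAC mice) summed to 1.54, 1.96 and 4.65 CPM in naive WT mice, 8.38, 17.1 and 10.8 CPM in WT CAC mice and 3.1, 2.08 and 4.8 CPM in *Cldn2*TG CAC mice, with 3 of 4 called higher in WT CAC mice and 3 of 4 lower in *Cldn2*TG CAC against WT CAC mice. B cell markers (led by *Cd79a* in WT CAC mice and by *Ms4a1* in the other groups) summed to 18.8, 2.26 and 3 CPM in naive WT mice, 30.2, 17.3 and 28 CPM in WT CAC mice and 6.06, 11.9 and 2.14 CPM in *Cldn2*TG CAC mice, and *Cd79a* was called lower in *Cldn2*TG CAC against WT CAC mice. Adipocyte markers (led by *Cfd*) were high in naive WT mouse 2 (88.2 CPM) and *Cldn2*TG CAC mouse 8 (60.9 CPM), against 0.134 to 21 CPM in the other mice, with no call by edgeR. Most of these marker calls were lost without 1 or more single mice. In WT CAC against naive WT mice, those of *S100a8*, *S100a9*, *Csf3r*, *Mcpt1*, *Mcpt2* and *Tpsb2* were lost without mouse 1, the mouse with high *Xist*.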
